A study of Mus musculus with 31 samples.

Results

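Regulatory T cells (Tregs) taken from lymph nodes of healthy mice were compared with Tregs taken from blood on the same 3 dates. The comparison holds 3 lymph node and 3 blood libraries of 31 in the series, chosen by their labels (WT, lymph node or blood) and paired by the date in the sample title. All 6 came from FVB/N mice labelled wt;Cdh1F/F;Trp53F/F, which carry floxed alleles of E-cadherin and p53 without a Cre transgene, and each library pooled cells of 3 mice. Cells were sorted as live CD45+ CD3+ CD4+ CD8- CD25+ cells, without a gate on FOXP3. The labels do not say which lymph nodes were taken from the WT mice and give no age. Lymph node libraries were made from 70000, 70000 and 62000 cells and blood libraries from 30000, 9000 and 20000, and red cell lysis is stated for blood and not for lymph node. Tissue, cell number and lysis therefore cannot be told apart within the WT mice. The most similar comparison was the tumor-draining lymph node against blood in KEP mice (K14cre;Cdh1F/F;Trp53F/F, FVB/N), in which Cre under the keratin 14 promoter deletes both genes in epithelium. These mice bore mammary tumors of 225 mm2 and gave 1 mouse per library and 3 libraries per tissue. WT spleen and lung Tregs of the same dates (3 libraries each) served to place the 2 tissues.

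Tregs are CD4 T cells that restrain immune responses under the control of the transcription factor FOXP3. They circulate between blood and lymph nodes: they enter nodes with the help of the chemokine receptor CCR7, meet antigen on dendritic cells there, and leave along a gradient of sphingosine 1-phosphate that they sense with the receptor S1PR1. The transcription factor KLF2 maintains S1PR1 in resting T cells, and signals through the T cell receptor lower KLF2 and induce genes such as Egr2 and Nr4a1.

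Depth ran from 8446510 to 10528692 counts in the lymph node libraries and from 8838218 to 10024307 in the blood libraries. The libraries matched their label as T cells and Tregs. The sum of 10 pan-T markers was 5700 to 6418 CPM (counts scaled to the library total with TMM factors) in lymph node and 5761 to 5930 in blood, so the groups overlapped. Foxp3 stood at 1018, 1228 and 992 CPM in lymph node and at 1086, 999 and 899 CPM in blood. Its log2 fold change, lymph node against blood as everywhere below, was 0.11 ± 0.07 (SE, n = 3 per tissue, adjusted p = 0.231), and it did not pass the test. Cd8a was at most 1.46 CPM in any of the 6 libraries and was not tested. Markers of red cells, platelets and cytotoxic lymphocytes were higher in the blood libraries, with values given further on. In bulk samples, fewer cells that express a gene and less RNA per cell cannot be told apart.

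Of 12260 genes tested, 4608 (37.6%) passed an adjusted p of 0.05. The calls were 2266 genes higher in lymph node (18.5%) and 2342 higher in blood (19.1%), and 381 (3.11%) and 600 (4.89%) of these differed at least 2-fold. The 3 libraries of a tissue did not overlap those of the other for 5314 genes (43.3%). The median log2 fold change of all genes was -0.0041. The genes at least 2-fold higher in lymph node were mostly ones for which blood was the lowest of the 4 WT tissues: blood had the lowest mean for 295 of 381, and lymph node the highest for 285. Of the 600 genes at least 2-fold higher in blood, lymph node was lowest for 436 and blood highest for 374. These genes were chosen for their difference in the same libraries, which by itself favours such orders, so the counts are a description. With the log2 number of sorted cells as a covariate 1837 genes were called, and with all 31 libraries in a fit without dates 1871.

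**Figure D1:**
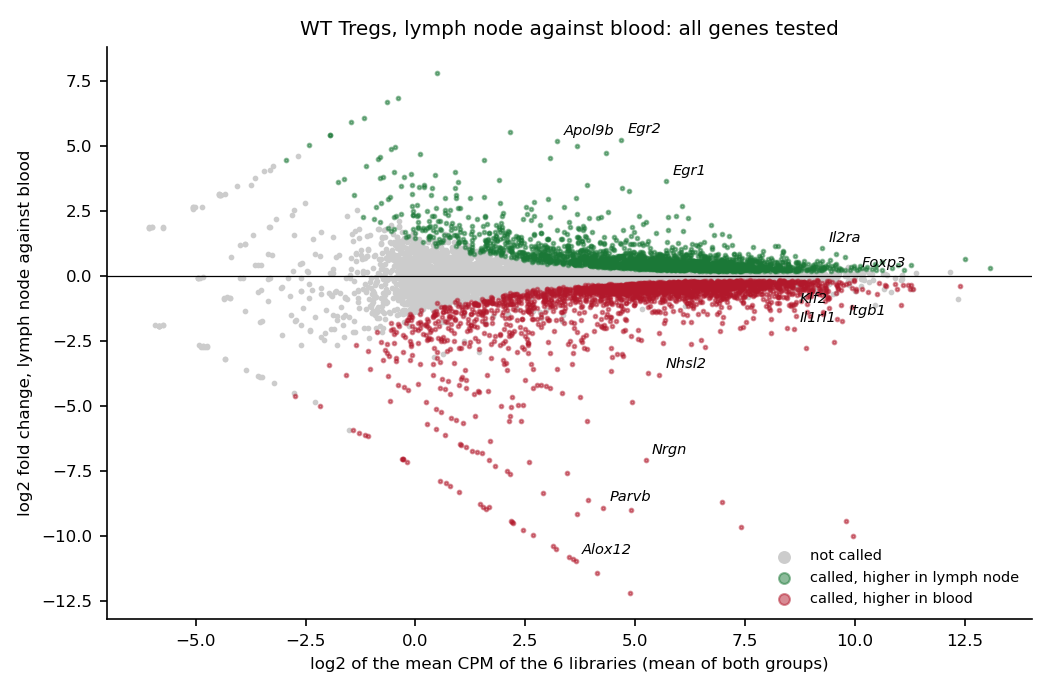
Each point is 1 gene tested in WT Tregs, with the log2 of its mean CPM on the x axis and the log2 fold change of lymph node against blood on the y axis. Green points were called higher in lymph node (2266), red points higher in blood (2342) and grey points were not called. Fitted fold changes of genes near 0 in a tissue, such as Alox12, depend on the prior count.

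The early response genes of the T cell receptor had the highest median of the 31 T cell gene lists. Of 17 such genes, 13 were higher in lymph node and 2 in blood, with a median log2 fold change of 1.55. Over all genes tested 18.5% were called higher in lymph node and 19.1% in blood, the shares to set beside every WT list count. Egr2, a zinc finger factor induced by receptor signals (chr10:67535475-67542188 on GRCm38), stood at 41.4, 48.5 and 60.4 CPM in lymph node against 0.942, 0.675 and 2.27 CPM in blood. The lowest lymph node library was far above the highest blood library, and the log2 fold change was 5.24 ± 0.20 (adjusted p = 7.54e-14). Its relative Egr3 (chr14:70077445-70080157) was at 19.4, 23.2 and 31.3 CPM in lymph node and at 0.942, 0.113 and 1.18 CPM in blood (4.99 ± 0.27, adjusted p = 1.32e-11). Egr1, of the same family, was at 87.9, 90.1 and 112 CPM against 7.12, 6.86 and 9.16 CPM (3.64 ± 0.12, adjusted p = 6.68e-15). All 3 Egr genes were separated without overlap, which the rule that named them required and which held for 43.3% of all genes. The orphan nuclear receptor gene Nr4a1, widely used as a reporter of receptor signalling, was at 115, 142 and 107 CPM in lymph node and at 26.9, 36.5 and 16.3 CPM in blood (2.22 on the log2 scale). Myc, a transcription factor of cell growth, was 143 ± 7.51 CPM in lymph node and 70.8 ± 7.29 CPM in blood (SD, n = 3; log2 fold change 1.01 ± 0.09). The feedback regulators Dusp2, Dusp6, Spry1, Spred1 and Nab2, named after their values were seen, were higher in lymph node by 1.21 to 1.96 on the log2 scale. The members higher in blood, named in the same way, were Tnfaip3 (-1.13), an inhibitor of NF-kB signalling, and Dusp5 (-0.27). The count in blood was 0 without lymph node library 2 or 3 or blood library 1 or 2, and 1 without lymph node library 1.

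Egr2 is shown with the 250 bases before its RefSeq start (GRCm38.p6, chr10:67537619-67537868, plus strand) because it had the highest fold change among the early response genes. Capitals mark a CArG box, the motif of serum response factor, 72 bases before the start. The gene span given above begins before this RefSeq start, so the window lies inside that span. A CArG box was found on either strand in 1.47% of 32851 promoters of the same length, and a match is a description of the letters only.
Egr2: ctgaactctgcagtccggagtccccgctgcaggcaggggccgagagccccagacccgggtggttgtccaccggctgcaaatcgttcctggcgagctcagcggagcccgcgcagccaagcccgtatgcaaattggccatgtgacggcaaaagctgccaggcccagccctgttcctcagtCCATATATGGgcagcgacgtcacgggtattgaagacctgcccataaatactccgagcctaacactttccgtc

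The 4 WT tissues did not share an order across these genes. Egr2 was 50.1 ± 9.59 CPM in lymph node, 31.6 in lung and 16 in spleen, each above blood at 1.29 ± 0.852, and the lymph node was higher than lung (log2 difference 0.66, adjusted p = 0.000287) and spleen (1.64, adjusted p = 3.86e-08). Egr1 was highest in lung, at 308 CPM, and lymph node was 1.66 lower than lung on the log2 scale. Nr4a1 was also highest in lung, at 1561, 1341 and 1798 CPM. Blood had the lowest mean of the 4 tissues for Egr1, Egr2, Egr3 and Nr4a1. The lung was digested with an enzyme for cell isolation, and no digestion is stated for lymph node or blood.

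**Figure D2:**
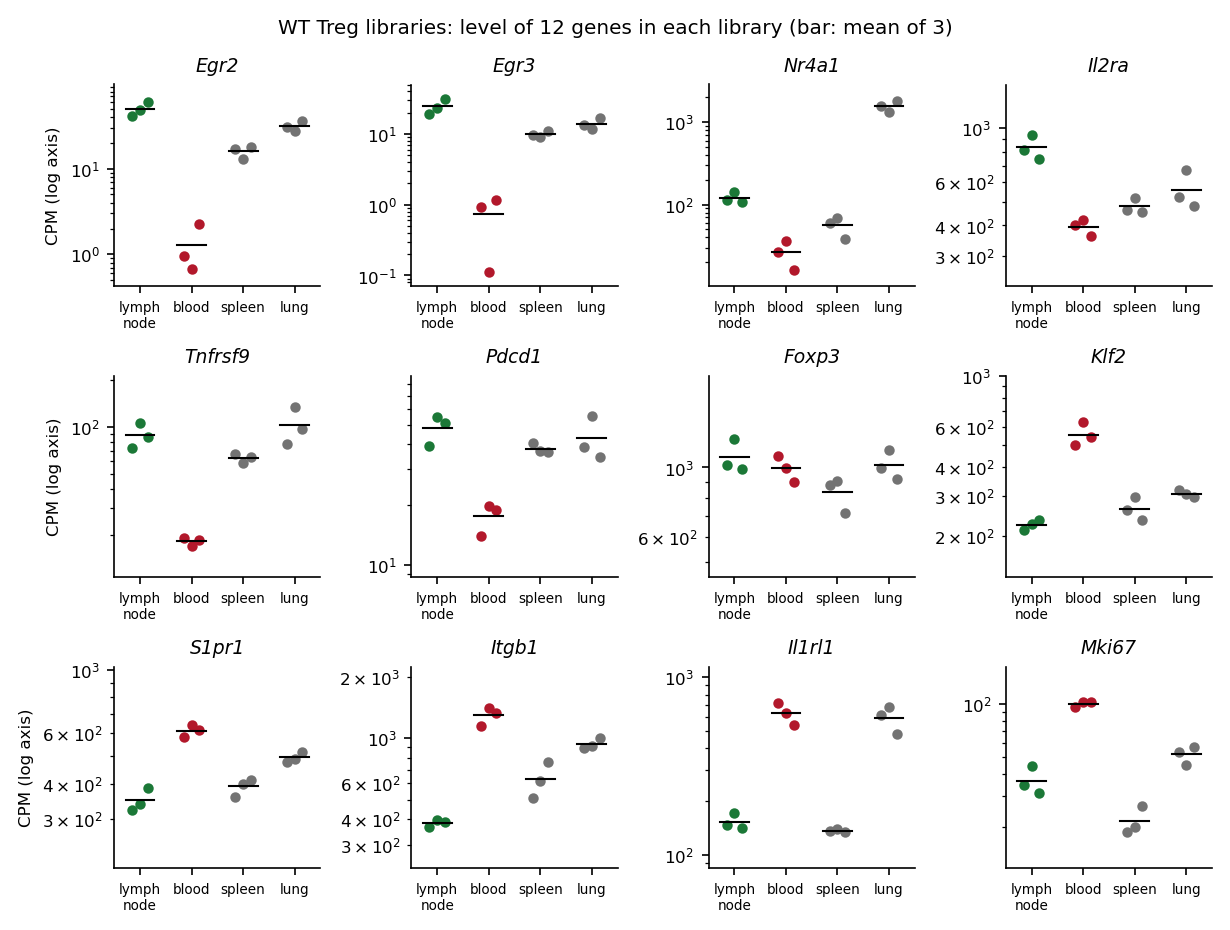
CPM of 12 genes on log axes in each WT library, 3 libraries per tissue in the order of the dates, with a bar at the mean. Egr2, Egr3, Nr4a1, Tnfrsf9, Pdcd1 and Il2ra are lowest in blood; Klf2, S1pr1, Itgb1 and Mki67 are highest in blood, and the Foxp3 libraries overlap between lymph node and blood.

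Among 13 genes of Treg identity, 7 were higher in lymph node and 1 in blood, with a median of 0.44. Il2ra, which encodes CD25, the receptor chain used in the sort, was at 814, 939 and 748 CPM in lymph node and at 402, 420 and 362 CPM in blood. The groups did not overlap, as the rule that named it required (1.07 ± 0.07, adjusted p = 3.35e-10). Spleen (478 CPM) and lung (558 CPM) lay between them. Gpr83, an orphan receptor of Tregs, was 168 ± 7.5 CPM against 44.9 ± 15.5 CPM (1.94 ± 0.12), and Ikzf4, the factor Eos, was 142 ± 6.03 against 82.9 ± 15.2 CPM (0.79 ± 0.08). Nrp1, a surface marker of thymus-derived Tregs, went the other way at 201 ± 16.5 CPM in lymph node and 417 ± 26.6 CPM in blood (-1.05 ± 0.08, adjusted p = 1.06e-09). Ctla4, an inhibitory receptor, ran from 322 to 591 CPM in lymph node and from 324 to 639 CPM in blood (-0.17 ± 0.15, adjusted p = 0.392). Ikzf2, the factor Helios, was 431 ± 52.9 against 482 ± 97.3 CPM (-0.15 ± 0.08, adjusted p = 0.133). Neither Ctla4 nor Ikzf2 passed the test.

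Inhibitory and costimulatory receptors were also higher in lymph node in several cases. Of 17 inhibitory receptors and suppressive mediators, 8 were higher in lymph node and 2 in blood (median 0.57), or 5 in blood without lymph node library 2 or blood library 2. Cd200 was at 23.2, 31.9 and 33.1 CPM in lymph node and at 3.77, 9.45 and 6.3 CPM in blood (2.21 ± 0.17). Lag3 was 20.2 ± 0.71 against 5.67 ± 1.25 CPM (1.84 ± 0.19), and Pdcd1, which encodes PD-1, was 48.3 ± 7.99 against 17.5 ± 3.17 CPM (1.46 ± 0.15). Of 18 effector Treg genes, 7 were higher in lymph node and 4 in blood, so the list did not move one way (median 0.02). Tnfrsf9, the costimulatory receptor 4-1BB, was at 73, 106 and 85.7 CPM against 19.2, 17.2 and 18.7 CPM (2.25 ± 0.17, adjusted p = 1.23e-06). Klrg1, a receptor of late effector cells, was at 43.9, 49 and 42.2 CPM in lymph node and at 241, 173 and 179 CPM in blood (-2.14 ± 0.11, adjusted p = 7.23e-10). Cd80, a ligand of CD28 and CTLA-4, was likewise higher in blood (-1.93 ± 0.18).

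Lta and Tnf, cytokine genes, were among the 12 lymph node genes named by rank. Lta, which encodes lymphotoxin alpha, was at 105, 100 and 99.9 CPM in lymph node and at 22, 19.6 and 20.5 CPM in blood (2.30 ± 0.10, adjusted p = 9.55e-13). Tnf was at 55.2, 64.9 and 62.5 CPM against 15.7, 12.8 and 15.4 CPM (2.05 ± 0.11). Among 16 T helper lineage genes 7 were higher in lymph node and 5 in blood (median 0.00). The 7 included Bcl6, the factor of follicular cells (1.09 ± 0.14), and the blood side included Gata3 (-0.72 ± 0.07) and Rora (-1.18 ± 0.11). Of 18 NF-kB subunits and targets 12 were higher in lymph node and 1 in blood (median 0.39), with Rel at 41.6 ± 4.76 against 17.6 ± 1.71 CPM (1.23 ± 0.11) and Nfkb2 at 151 ± 7.17 against 99.2 ± 4.87 CPM (0.61 ± 0.09). Of 16 genes of the IL-2 and STAT5 axis 6 were higher in lymph node and 3 in blood, or 5 in blood without blood library 2. Cish, a feedback inhibitor of cytokine receptors, was 403 ± 57.3 against 181 ± 27.4 CPM (1.15 ± 0.11), whereas the kinase gene Pim1 was 342 ± 39.1 against 889 ± 92.4 CPM (-1.38 ± 0.08).

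Other genes named on the lymph node side were Wnt10a, a secreted WNT ligand, at 28.5, 44.9 and 42.5 CPM against 0.837, 2.14 and 1.38 CPM in blood (4.74 ± 0.23). Ccr8, a chemokine receptor of tissue and tumor Tregs, was at 21.6, 27.5 and 18.5 CPM against 3.25, 3.04 and 2.17 CPM (2.99 ± 0.18). Marcksl1, an actin and membrane binding protein, was 27.7 ± 6.25 against 2.44 ± 0.714 CPM (3.51 ± 0.17), and the potassium channel gene Kcnf1 was 56.2 ± 6.45 against 11.3 ± 1.04 CPM (2.32 ± 0.13). Apol9b was 18.3 ± 2.84 against 0.482 ± 0.184 CPM (5.19 ± 0.34) and the dynein gene Dnah7a was 47.4 ± 10.5 against 4.61 ± 1.47 CPM (3.36 ± 0.18). Both of the latter have near-identical copies, so their values are uncertain. For 9 of the 12 lymph node genes named by rank the lymph node was the highest of the 4 tissues, and lung was highest for the other 3. These 12 were also chosen for their difference from blood, so the count is a description.

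Genes of the egress and KLF2 axis, a list of sphingosine 1-phosphate receptors, KLF factors and related genes, were mostly higher in blood. Of 10 genes of this list 7 were higher in blood and 1 in lymph node, with a median of -0.99. The 7 hold the KLF factors Klf2, Klf3, Klf6 (-1.55) and Klf13 (-0.47), of which Klf13 and Klf6 were named after their values were seen. The 7 include S1pr5, named after its value was seen, near 0 in lymph node (0.03 CPM). It varied widely between the blood libraries (6.34 ± 8.94 CPM, SD). Klf2 (chr8:72319033-72321656) was at 212, 227 and 234 CPM in lymph node and at 497, 626 and 539 CPM in blood (-1.30 ± 0.08, adjusted p = 1.32e-10). Klf3, a repressor of the same family whose exons overlap another gene, was at 76.5, 86.9 and 86.7 CPM against 261, 303 and 287 CPM (-1.77 ± 0.07, adjusted p = 7.54e-14). S1pr1 was at 324, 341 and 385 CPM against 583, 641 and 613 CPM (-0.81 ± 0.07, adjusted p = 9.95e-09). S1pr4, another sphingosine 1-phosphate receptor, was at 230, 241 and 221 CPM against 516, 485 and 546 CPM (-1.16 ± 0.08, adjusted p = 3.62e-10). Klf2, Klf3, S1pr1 and S1pr4 did not overlap between lymph node and blood, which for Klf3 was a condition of being named by rank. Cd69, whose protein pulls S1PR1 from the surface, did not pass the test at 83.5 ± 15.9 against 96.7 ± 7.62 CPM (-0.22 ± 0.11, adjusted p = 0.152). Foxo1, an upstream factor of Klf2, was the member higher in lymph node (0.26), named after its value was seen.

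Klf2 and S1pr4 are shown with the 250 bases before their RefSeq starts (GRCm38.p6) because both were higher in blood and KLF factors bind CACCC boxes. The windows are chr8:72318812-72319061 on the plus strand and chr10:81500138-81500387 on the minus strand. Capitals mark CACCC or its reverse complement GGGTG, found once in each, 19 and 107 bases before the start. The Klf2 span given above begins before this RefSeq start, so the end of the Klf2 window, with its match, lies inside that span. Of 32851 promoters of the same length 52% held such a match, so its presence sets neither gene apart.
Klf2: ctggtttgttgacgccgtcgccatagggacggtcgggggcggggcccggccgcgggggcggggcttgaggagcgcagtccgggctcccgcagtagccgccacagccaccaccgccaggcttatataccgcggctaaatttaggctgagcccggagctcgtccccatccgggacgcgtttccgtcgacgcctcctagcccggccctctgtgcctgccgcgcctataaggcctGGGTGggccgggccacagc
S1pr4: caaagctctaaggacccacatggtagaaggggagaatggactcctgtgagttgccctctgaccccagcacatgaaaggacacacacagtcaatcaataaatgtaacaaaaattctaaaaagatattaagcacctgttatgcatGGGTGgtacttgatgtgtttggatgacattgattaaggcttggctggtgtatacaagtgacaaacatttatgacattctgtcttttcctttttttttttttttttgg

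Klf2 and S1pr1 were highest in blood among the 4 WT tissues. Klf2 was 554 ± 66 CPM in blood, 306 in lung, 264 in spleen and 224 ± 11.5 in lymph node, and the difference between lymph node and spleen did not pass the test (adjusted p = 0.0702). For S1pr1 the order was the same, with lymph node and spleen again not separated (adjusted p = 0.131). Among 12 genes of homing and retention in lymphoid tissue 5 were higher in blood and 1 in lymph node (median -0.17). Rasgrp2, an activator of the integrin switch RAP1, was 241 ± 34.3 against 509 ± 52.1 CPM (-1.08 ± 0.08), and Gpr183, a receptor for oxysterols that guides cells within follicles, was 47.7 ± 3.98 against 98.4 ± 17.6 CPM (-1.04 ± 0.10). Ccr7 ran from 261 to 385 CPM in lymph node and from 310 to 526 CPM in blood and was not called (-0.22 ± 0.12, adjusted p = 0.181).

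More adhesion and chemokine receptor genes were called higher in blood than in lymph node. Of 14 integrin chains and selectin ligand enzymes 7 were higher in blood and 2 in lymph node (median -0.51). Itgb1, the beta1 integrin chain (chr8:128685654-128733200), was at 368, 396 and 389 CPM in lymph node and at 1143, 1404 and 1335 CPM in blood, a wide gap between the groups (-1.75 ± 0.09, adjusted p = 4.22e-12). Its partner Itga4 was 169 ± 8.94 against 361 ± 40.9 CPM (-1.09 ± 0.08), and Itgb7, the chain that pairs with Itga4 for gut homing, was 1109 ± 55.3 against 1807 ± 149 CPM (-0.70 ± 0.07). Itgb3 was 66.6 ± 6.07 against 270 ± 49.8 CPM (-2.01 ± 0.14). Platelets also express Itgb1 and Itgb3, and 8 platelet markers summed to 101 to 235 CPM in blood. In lung, where that sum was 6.33 to 7.07 CPM, Itgb1 stood at 934 CPM and Itgb3 at 271 CPM. The part of platelet RNA in the blood values of both genes was not tested. Of 13 tissue and inflammatory chemokine receptors 6 were higher in blood and 3 in lymph node (median -0.76). Ccr3, the eotaxin receptor, was at 10.3, 12.7 and 8.88 CPM against 62.5, 62.3 and 52.9 CPM in blood (-2.49 ± 0.18), Ccr9, the receptor for the gut chemokine CCL25, was 2.24 ± 0.7 against 10.3 ± 3.68 CPM (-2.20 ± 0.23), and Ccr4 was 173 ± 12.9 against 262 ± 39 CPM (-0.59 ± 0.09). Ccr9 shares exon positions with Slc6a20a, so its count is uncertain.

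The list of S100, annexin and galectin genes, which also holds Vim, Ahnak and Crip1 of other families, had 12 of 16 members higher in blood. In lymph node 0 were higher (median -0.77). Most of the list encodes calcium or membrane binding proteins common in effector and memory T cells. At an unadjusted p under 0.05 the count higher in lymph node was 0, and DESeq2 and limma-voom also called 0. S100a10 was at 393, 368 and 344 CPM in lymph node and at 1243, 1186 and 1091 CPM in blood (-1.67 ± 0.08, adjusted p = 3.5e-12). Crip1 was 259 ± 7.7 against 757 ± 48.9 CPM (-1.55 ± 0.08), and Ahnak was 1345 ± 313 against 2894 ± 116 CPM (-1.13 ± 0.10). Tagln2, an actin binding protein, was 333 ± 39.3 against 910 ± 33.3 CPM (-1.46 ± 0.07).

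Genes linked to tissue Tregs did not follow 1 direction, with 5 of 14 higher in each tissue (median -0.18). The lymph node count was 3 without lymph node library 1 or 2, and the blood count was 3 without lymph node library 3 and 8 without blood library 2. Il1rl1, which encodes ST2, the receptor for IL-33 (chr1:40429570-40465415), was at 147, 172 and 141 CPM in lymph node and at 720, 630 and 536 CPM in blood (-2.03 ± 0.09, adjusted p = 9.08e-13). Lung stood at 592 CPM and did not differ from blood beyond the threshold (adjusted p = 0.389), while spleen was at 136 CPM and did not differ from lymph node beyond it (adjusted p = 0.267). Penk, which encodes an opioid peptide precursor, was 11.4 ± 4.05 CPM in lymph node and 1.6 ± 0.727 CPM in blood (2.85 ± 0.32), the opposite direction. The genes of resting and central T cells were mostly higher in lymph node, 11 of 15 against 1 in blood (median 0.63). Bach2, a repressor of effector programs, was 103 ± 10.9 against 51.3 ± 13 CPM (1.02 ± 0.11), Actn1 was 105 ± 30.7 against 32.2 ± 8.92 CPM (1.71 ± 0.15) and Foxp1 was 227 ± 16.4 against 146 ± 14.8 CPM (0.63 ± 0.07).

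Other genes named on the blood side included Rap1gap2, which switches RAP1 off, at 25.2, 18.9 and 20.4 CPM in lymph node against 141, 114 and 144 CPM (-2.63 ± 0.10). Nhsl2 was at 7.65, 5.63 and 5.39 CPM against 87.4, 75.4 and 98.2 CPM (-3.80 ± 0.14). The phosphatase gene Cdc25b was 139 ± 8.73 against 563 ± 28 CPM (-2.02 ± 0.08) and the phosphodiesterase gene Pde2a was 98.7 ± 11 against 446 ± 29.8 CPM (-2.18 ± 0.09), and both overlap another gene. Alox12, Parvb and Nrgn, which are abundant in platelets, were at or near 0 in lymph node. Alox12 had 0 counts in all 3 lymph node libraries and 34.6, 26 and 14.5 CPM in blood, at least 255.2-fold higher than a floor of 3 counts over the lymph node group. Parvb was 0.0615 ± 0.0533 against 38.6 ± 12.7 CPM and Nrgn was 0.519 ± 0.0611 against 74.8 ± 34.7 CPM. Across the 3 blood libraries Alox12 and Nrgn fell in the same order as the platelet marker sum of 235, 184 and 101 CPM, and the part of platelet RNA in these values was not tested.

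Cell cycle and ribosome genes moved in different directions. Of 30 proliferation genes 15 were higher in blood and 3 in lymph node (median -0.71). Mki67 was at 34.7, 44 and 30.9 CPM in lymph node and at 96.3, 102 and 102 CPM in blood (-1.46 ± 0.13, adjusted p = 4.67e-07), and Ube2c, a mitotic ubiquitin enzyme, was 1.23 ± 0.691 against 5.83 ± 0.717 CPM (-2.33 ± 0.40). Those higher in lymph node were the replication helicase genes Mcm2 (0.49), Mcm3 (0.38) and Mcm5 (0.49), of which the last 2 are named after their values were seen. Ribosome biogenesis genes were higher in lymph node in 19 of 22 cases and in 0 cases in blood (median 0.58), with Nolc1 at 119 ± 15.3 against 64.7 ± 6.4 CPM (0.88 ± 0.08), Fbl at 82.3 ± 11.6 against 44.9 ± 0.927 CPM (0.86 ± 0.09) and Ncl at 839 ± 86.9 against 546 ± 58.6 CPM (0.62 ± 0.07). At an unadjusted p under 0.05 0 were higher in blood, and DESeq2 and limma-voom called 0. Genes of cytosolic ribosomal proteins differed little, with 15 of 51 higher in lymph node and 0 in blood (median 0.07). Their summed level was 32688, 33911 and 35882 CPM in lymph node and 29928, 37015 and 30041 CPM in blood, so the groups overlapped. Without lymph node library 3, 5 ribosomal protein genes were called higher in lymph node, and without blood library 3, 8. At an unadjusted p under 0.05, 1 was higher in blood, and DESeq2 called 2 and limma-voom 4.

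All 8 GIMAP genes, which encode GTPases that support lymphocyte survival, were higher in blood (median -0.56). Gimap7 was 117 ± 7.03 against 235 ± 14.7 CPM (adjusted p = 8.89e-10), Gimap3 was 433 ± 20.9 against 852 ± 62.3 CPM (-0.97 ± 0.07) and Gimap6 was 446 ± 37.8 against 725 ± 56.3 CPM (-0.70 ± 0.08). The TGF-beta axis had 8 of 15 members higher in lymph node and 3 in blood (median 0.20), among them the receptors Tgfbr1 (142 ± 7.88 against 87.2 ± 4.93 CPM) and Tgfbr3 (81 ± 19.3 against 39.1 ± 6.02 CPM) and the ligand Tgfb1 (259 ± 33.8 against 173 ± 5.89 CPM). Heat shock chaperones had 6 of 12 members higher in lymph node and 0 in blood (median 0.25), or 3 in lymph node without lymph node library 2, with Hsp90ab1 at 1851 ± 155 against 1280 ± 84.2 CPM (0.53 ± 0.08). At an unadjusted p under 0.05 2 heat shock genes were higher in blood, and DESeq2 and limma-voom called 0.

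Several lists had a median near 0 with calls in both directions, as had all genes tested (18.5% higher in lymph node and 19.1% in blood). Of 22 genes of the T cell receptor complex and its signalling 7 were higher in lymph node and 2 in blood (median 0.06), and of 20 actin and motility genes 7 and 6 (median 0.05). Of 25 glycolysis and hypoxia genes 6 were higher in lymph node and 3 in blood, or 6 in blood without blood library 2 (median 0.04). Type I interferon response genes were split, with 4 of 27 higher in lymph node and 7 in blood (median -0.01). Usp18, a brake on interferon signalling, was 8.77 ± 1.71 against 3.34 ± 1.02 CPM (1.40 ± 0.24), and the antiviral gene Oas1a was 19.7 ± 4.97 against 43.3 ± 11.2 CPM (-1.14 ± 0.13). The interferon count in lymph node was 2 without lymph node library 1 or blood library 2 and 1 without lymph node library 2 or blood library 3, and the count in blood was 4 without lymph node library 3.

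Some calls depended on the samples and terms in the fit. The counts in this paragraph cover only the T cell lists whose main counts are given in the text. Other lists moved as well under the covariate, among them oxidative phosphorylation from 4 to 0 in lymph node and interferon gamma response from 5 to 1 in blood. With sorted cells as a covariate the early T cell receptor response kept a count of 11 in lymph node, ribosome biogenesis 14, S100, annexin and galectin genes 10 in blood and egress genes 6 in blood. Counts in lymph node that moved by over 1.5 times under the covariate were 0 for integrins and type I interferon, 1 for chemokine receptors, proliferation, glycolysis and the T cell receptor complex, 2 for the IL-2 axis and actin, 3 for tissue Treg genes, T helper genes and NF-kB, and 4 for ribosomal proteins and the TGF-beta axis. In blood they were 0 for early response, resting T cell and NF-kB genes, 1 for the T cell receptor complex, 2 for Treg identity, 3 for immediate early and actin genes, 4 for proliferation and 5 for inhibitory receptors. In the fit of 31 libraries without dates the early response count in lymph node was 10, ribosome biogenesis 15 and the egress count in blood 5. Counts in lymph node that moved by over 1.5 times there were 0 for Treg identity, egress, homing, heat shock, proliferation, ribosomal proteins and the T cell receptor complex, 1 for integrins, immediate early genes, actin and type I interferon, 2 for effector Treg genes, inhibitory receptors and the IL-2 axis, 3 for tissue Treg genes, NF-kB and glycolysis, 4 for the TGF-beta axis and 5 for resting T cell genes. In blood they were 0 for early response, resting T cell, proliferation, NF-kB, glycolysis, GIMAP and T cell receptor complex genes, 1 for inhibitory receptors, tissue Treg genes and the TGF-beta axis, 2 for homing and actin, 3 for T helper and type I interferon genes, 4 for integrins and 7 for S100, annexin and galectin genes. Without the date block the lymph node count was 6 for ribosomal proteins, 4 for actin, 2 for type I interferon, 1 for integrins and 0 for egress, and the blood count was 0 for early response and NF-kB genes. Of the genes named by rank, Il2ra lost its call in the fit of 31 libraries without dates. The other 23 were called the same way under all alternatives run. Klf2 and S1pr1 also were.

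**Figure D3:**
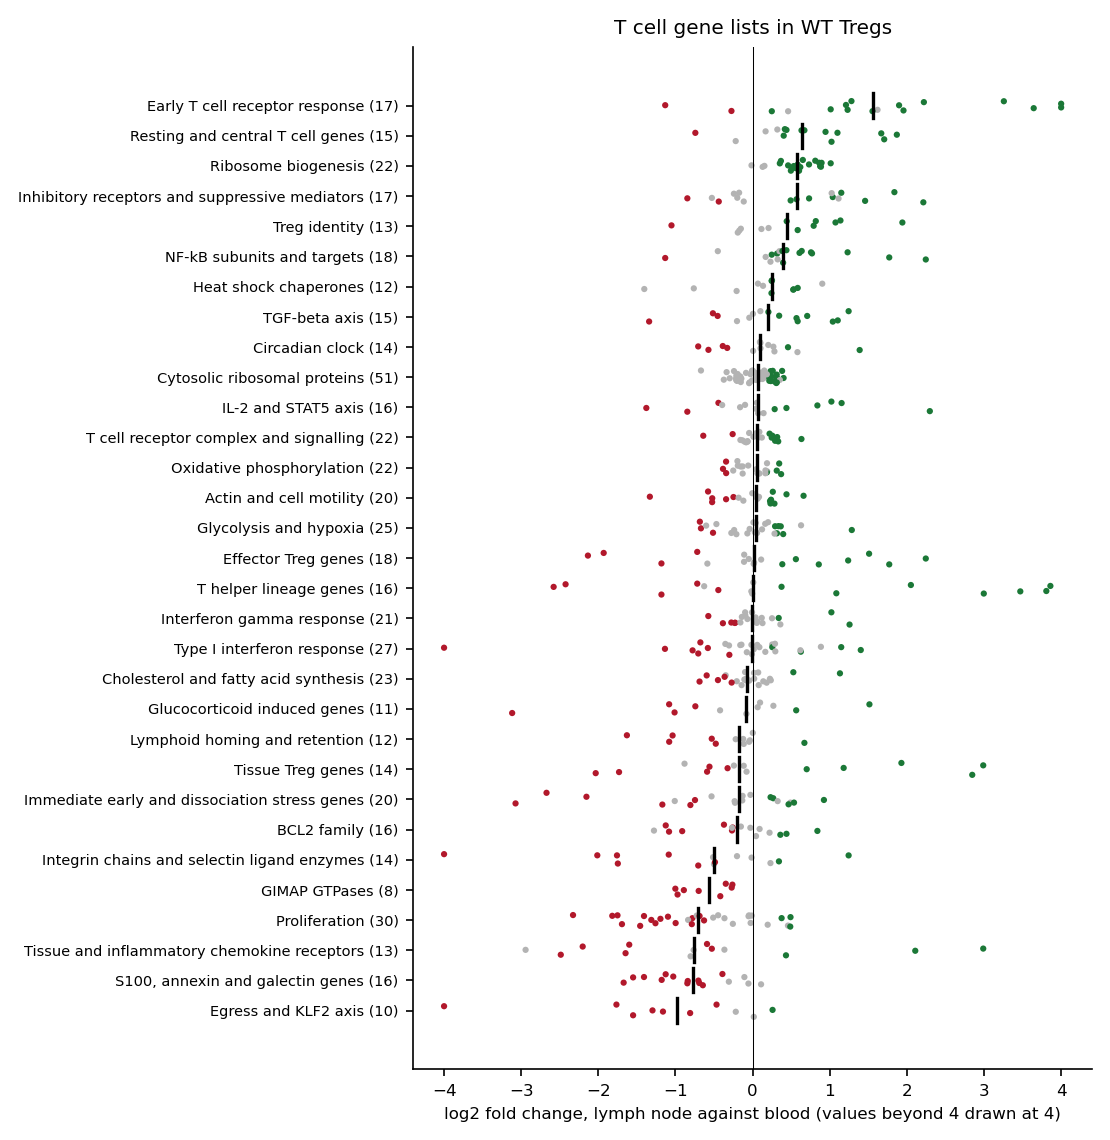
Log2 fold change of lymph node against blood for each tested member of 31 T cell gene lists, with the number tested in parentheses and the median as a black bar, ordered by median. Green members were called higher in lymph node, red ones higher in blood and grey ones were not called. Early T cell receptor response genes lie highest (median 1.55) and genes of the egress and KLF2 axis lowest (median -0.99).

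Immediate early genes that cell preparation can also induce were called in both directions. Of 20 such genes 5 were higher in lymph node and 6 in blood (median -0.18). The shares over all genes tested were 18.5% and 19.1%, so the counts do not set the list apart. Fos was at 5.58, 7.77 and 3.69 CPM in lymph node and at 50.9, 48.4 and 41.7 CPM in blood (-3.07 ± 0.16, adjusted p = 9.18e-10), and Fosb was 1.62 ± 0.181 against 10.2 ± 2.49 CPM (-2.67 ± 0.25). Both were highest in lung, at 768 and 1657 CPM. Zfp36l1, an RNA decay factor, was higher in lymph node (0.92 ± 0.07). In all 3 date pairs Fos and Fosb were higher in blood. Egr1, Egr2 and Egr3 were higher in lymph node in all 3, as the rule that named them required.

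Marker genes of other cells differed between the libraries. Red cell markers summed to 38.1 to 40.2 CPM in lymph node and to 8387, 3259 and 2075 CPM in blood, and all 8 tested were higher in blood. Hemoglobin genes took 0.771, 0.296 and 0.190% of counts in the blood libraries and at most 0.00058% in lymph node, and their near-identical copies share reads. All 6 tested platelet markers were higher in blood. Pf4, Ppbp, Gp9, Gp1bb, Treml1 and Clec1b had 0 counts in every lymph node library. CD8 T and NK cell markers summed to 59.2 to 77.7 CPM in lymph node and to 281, 122 and 448 CPM in blood, with 5 of 7 higher in blood and 1, Eomes, higher in lymph node. The blood count was 3 without lymph node library 1 or 2, 1 without lymph node library 3 and 2 without blood library 1 or 3. Of these Klrb1c was at 35, 23.5 and 23.8 CPM against 83.2, 48.2 and 94.4 CPM (-1.43 ± 0.31, adjusted p = 0.0117). B cell markers overlapped in sum (653 to 750 against 621 to 766 CPM), though 5 of 9 were higher in blood, such as Cd79b at 10.1 ± 0.997 against 22 ± 3.6 CPM, and 1, Blk, in lymph node (1.49). The B cell count in blood was 1 with the sorted cell covariate and 1 in the fit of 31 libraries. Of 7 monocyte and macrophage markers 4 were higher in blood (Lyz2, Csf1r, Itgam and Cd68) and 1, Ctss, in lymph node (median -2.12), and their sums were 253 to 264 CPM in lymph node and 189 to 210 CPM in blood. Of 7 dendritic cell markers 3 were higher in blood and 1 in lymph node, with 1 in blood and 2 in lymph node without blood library 3 and 0 in lymph node without lymph node library 2. Of 4 plasma cell markers 3 were higher in lymph node and 1 in blood, with 1 in lymph node without lymph node library 1 or 2 and 0 in blood without any single library other than blood library 1. Of 6 gamma delta T cell and innate lymphoid markers 2 were higher in each tissue, with 3 in blood without blood library 2 and 1 in blood without any other single library. Members of these lists were named after their values were seen. Stromal and endothelial lists had 0 of 4 tested members called each by edgeR, 0 at an unadjusted p under 0.05, and 0 by DESeq2 and limma-voom. The part of these cells in the differences above was not tested.

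**Figure D4:**
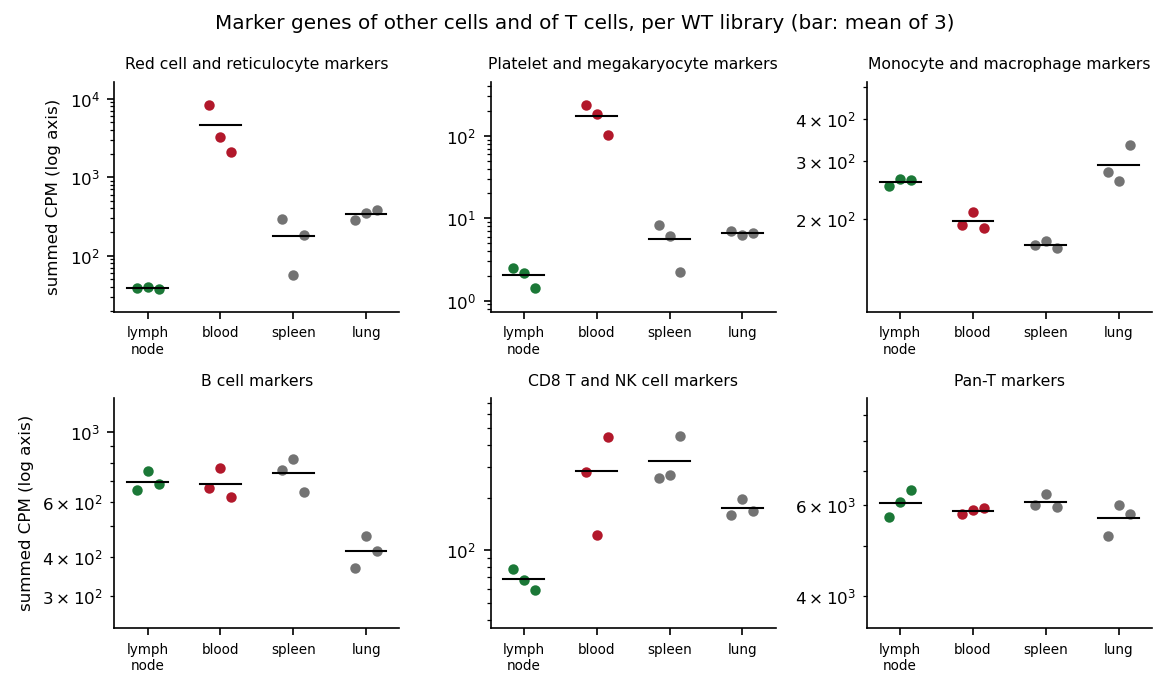
Summed CPM of marker lists on log axes in each WT library, 3 per tissue in date order, with a bar at the mean. Red cell and platelet sums are higher in all 3 blood libraries than in any other library shown, and pan-T sums overlap between lymph node and blood.

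The same contrast was measured in KEP mice from libraries that share none with the WT groups. There 6033 of 12332 genes were called (48.9%), 3045 higher in the draining lymph node (24.7%) and 2988 higher in blood (24.2%). KEP blood libraries 1 and 3 were sorted from 70000 cells, the number used for the KEP lymph nodes, and KEP blood library 2 from 17000. Of the 4608 WT calls 4569 were tested in KEP mice, and 3329 (72.9%) were called in the same direction and 52 (1.14%) in the opposite one. Of 942 tested WT calls of at least 2-fold, 737 were called in the same direction and 3 in the opposite one. Egr1 was 3.64 in WT and 3.95 in KEP mice, Egr3 4.99 and 4.73, Klf2 -1.30 and -1.01, S1pr1 -0.81 and -1.04, Itgb1 -1.75 and -1.58, and Il1rl1 -2.03 and -2.23. None of these 6 differed between genotypes beyond the threshold (adjusted p of the difference 0.174 to 0.87). Of the 24 genes named by rank, 8 did, a description because the WT contrast that ranked them enters the difference. Egr2 was 5.24 in WT and 7.11 in KEP mice (difference 1.87, adjusted p = 0.0471), Wnt10a 4.74 and 7.46, Tnf 2.05 and 3.11, Ccr8 2.99 and 2.15, Apol9b 5.19 and 3.43, Il2ra 1.07 and 0.52, Cdc25b -2.02 and -1.56, and S100a10 -1.67 and -1.26.

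The difference between the genotypes was called for 743 of 12825 genes (5.79%), 459 above 0 (3.58%) and 284 below 0 (2.21%). Genotype goes here with tumor, dates, mice per library and sorted blood cells, which cannot be told apart. Without the date as a block 114 were called. Without WT lymph node library 1 or 2 the count was 398 or 283, without KEP lymph node library 2 451 and without KEP blood library 1 440. Foxp3 did not differ between tissues in WT mice beyond the threshold (0.11) and was higher in blood in KEP mice (-0.44), and the difference passed the test (-0.55, adjusted p = 0.00392). Ikzf2 was -0.15 in WT and -0.95 in KEP mice (difference -0.78, adjusted p = 0.00582). Ccr7 was -0.22 in WT and 1.41 in KEP mice (difference 1.64, adjusted p = 0.00964), and Cxcr5, the receptor that leads cells to follicles, was -0.05 and 1.51 (difference 1.57, adjusted p = 0.000288). Il2ra was higher in lymph node in both but less so in KEP mice (1.07 and 0.52, difference -0.54). Ribosomal protein genes had the difference called for 43 of 51. In KEP mice 50 of 51 were higher in lymph node (median 0.64) and in WT mice 15. Their summed level was 36132 to 40001 CPM in KEP lymph node and 24175 to 25159 CPM in KEP blood. Proliferation genes had 7 of 30 higher in the KEP lymph node and 2 in KEP blood (median 0.32). Of all genes tested in KEP mice 24.7% and 24.2% were called in these directions. The difference from WT was called for 4 of 30 proliferation genes, against 5.79% of all genes.

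**Figure D5:**
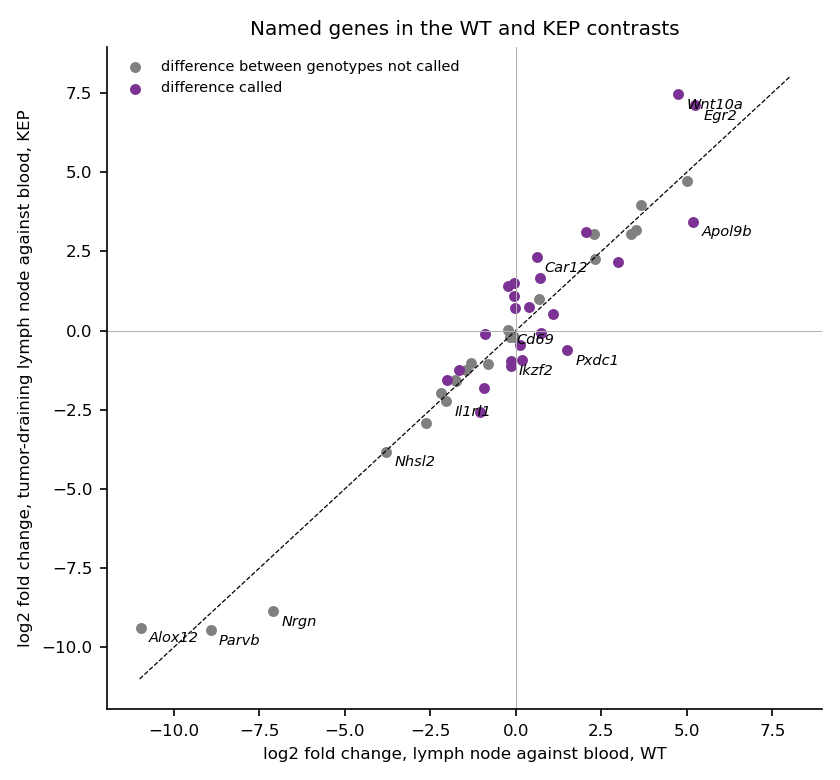
Log2 fold change of lymph node against blood in WT mice (x axis) and of tumor-draining lymph node against blood in KEP mice (y axis) for the genes named by rank, by the fixed set or by the difference. Purple points passed the test of the difference between genotypes, and genes named by the difference were chosen for it. Points on the dashed line, near which Nhsl2 lies at -3.80 and -3.82, have equal values.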

How the data were processed

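RNA of sorted CD25+ CD4 T cells was sequenced in 31 libraries as 65-base single reads with a stranded mRNA kit, per the labels' protocols. The authors deposited raw read counts per gene for 24594 genes, made with TopHat2 2.1.0, TopHat and HTSeq on GRCm38 per the submitters' processing notes. The annotation and the strand setting of the counting are not given in the sources used here, so overlapping genes are uncertain. Of the gene identifiers, 24270 were found in GENCODE M21, which gave the positions.

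Levels are CPM with TMM factors. Tissues were compared in R 4.3.3 by edgeR 4.0.16, using its robust quasi-likelihood fit and F test on the 12 WT libraries of lymph node, blood, spleen and lung with the title date as a block, after filterByExpr at a minimum count of 10, with Benjamini-Hochberg adjustment over all genes tested. A gene was called at an adjusted p under 0.05. The KEP contrast used the 12 KEP libraries in the same way, and the difference between genotypes all 24 with dates nested in genotype. The shared title dates pair the libraries: same-date lymph node and blood libraries of WT mice had deviations from their group means correlated at 0.228, 0.099 and 0.125 across genes, and libraries of different dates at -0.19 to 0.0466. Lymph node and blood pools are separate samples by the labels, which do not say whether both came from the same mice, and p-values measure the spread between pools. The chi-square of replicate pairs, divided by its degrees of freedom, was 4.45 to 14.6, so none was a duplicate.

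The comparison, the 31 T cell lists and the 13 lists of other cells were chosen with earlier results of these data known. They hold 684 symbols, of which 5 were not matched. Genes named in the text were, for the contrast, the 12 each way with the smallest p among called genes with at least 2-fold change, a mean of at least 5 CPM, no overlap and the same direction in all 3 dates, leaving out marker lists, receptor and immunoglobulin segments and unnamed genes. From each list at most 4 called genes were added (the lowest p where none was called), besides 13 genes set by name and 6 genes each way for the genotype difference. The script was tested on simulated data. Other settings tried were RLE factors, upper-quartile factors, a minimum count of 50, an unfiltered table, no block, other sets of libraries, sorted cells as a covariate, a 1.5-fold minimum with glmTreat, limma-voom (limma 3.58.1), DESeq2 1.42.0 and leaving out each library. A member of the lymphoid homing list is counted but not reported here.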

Additional observations from a re-analysis of the deposited data

Results flagged for a closer look

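The lymph node against blood contrast differed between KEP and WT mice for 52 of the 189 named genes. The interaction test at an adjusted p under 0.05 called 5.79% of all genes. Most of the 189 were picked by a small p of the WT contrast, which enters the difference, so the count is a description. Values are the KEP log2 fold change minus the WT one, so that a positive value is a contrast shifted toward the lymph node in KEP mice. The KEP and WT libraries share no date, so date and genotype cannot be told apart. They also differ in mice per library (1 in KEP, 3 in WT), in sorted blood cells, in tumor and possibly in the nodes taken. None of these can be told apart from genotype either. The counts of such genes moved with the block and with the library left out, as given above. Among T cell receptor response, cytokine and immediate early genes the difference was above 0 for Egr2 (1.87), Tnf (1.07), Myc (0.77) and Fosb (1.75). Among resting T cell, homing and TGF-beta genes the difference was above 0 for Ccr7 (1.64), Cxcr5 (1.57), Bach2 (1.03), Foxp1 (0.41), Bcl2 (0.99) and Tgfbr3 (0.97). Among ribosome genes the difference was above 0 for Rps4x (0.38), Rpl23 (0.42), Rpl8 (0.54), Fbl (0.41) and Nop56 (0.74). Among GIMAP genes the difference was above 0 for Gimap3 (0.56), Gimap4 (0.79) and Gimap6 (0.40). It was also above 0 for Wnt10a (2.73), Cdc25b (0.47), S100a10 (0.43), Cd68 (1.55), Ccl5 (3.05), Trp53 (0.37), Parp8 (1.15), Rcn1 (0.98) and Car12 (1.72). Among Treg identity, receptor and signalling genes the difference was below 0 for Foxp3 (-0.55), Ikzf2 (-0.78), Il2ra (-0.54), Pdcd1 (-0.88), Tox (-0.79), Tnfrsf9 (-1.03), Cish (-0.72), Cd200r1 (-1.09) and Tgfbr1 (-0.47). Among chemokine receptor, integrin and lineage genes the difference was below 0 for Ccr8 (-0.82), Ccr4 (-0.63), Itgb3 (-0.66), Gata3 (-0.42), Rora (-0.66) and Il9r (-0.86). It was also below 0 for Apol9b (-1.74), Cd81 (-0.80), Zfp36l1 (-0.34), Actb (-0.33), Ddit4 (-1.17), Sdc1 (-1.48), Epcam (-1.60), Nebl (-1.52), Pcyt1a (-0.96) and Pxdc1 (-2.10). Parp8, Rcn1, Car12, Cxcr5, Nop56, Gimap4, Il9r, Nebl, Cd200r1, Pcyt1a, Pxdc1 and Tox were named because of this difference, so theirs are a description. Among genes called in opposite directions in the genotypes, Pxdc1 was 1.49 in WT and -0.62 in KEP mice. Its KEP call was lost without KEP lymph node library 1 or 2 or KEP blood library 1. Epcam, also called in opposite directions, was 0.87 in WT and -0.76 in KEP mice, and its WT call was lost under 3 of 19 alternatives.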

How the results depend on the processing

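The WT count of 4608 called genes stayed within 1.5 times with RLE (4600) or upper-quartile factors (4680), without a filter (4750), at a minimum count of 50 (4195), with DESeq2 (4186) or limma-voom (4741), in fits of 6 libraries (4450) or 24 (5183), and without 1 library (3542 to 4455). Without the date block it was 3720, and the KEP count without the block was 4839. It moved further in the fit of 31 libraries without dates (1871, 934 higher in lymph node and 937 in blood), with log2 sorted cells as a covariate (1837, 776 and 1061) and with a test against 1.5-fold (751, 291 and 460), and the cause was not tested except that the last sets a higher bar. The genotype difference, 743 genes, was called for 114 without the replicate block and for 283 to 761 without 1 library. Reversed signs under the covariate were Xbp1 (-0.0029, called at 0.29 without it), Car12 (-0.070, called at 0.60), Col1a2 (-1.23), Foxp3 (-0.088), Ctla4 (0.035) and Parp8 (0.17). The following, which were not called, also changed sign: Nop56 with upper-quartile factors (0.0040) or no filter (0.0017) and, over the fits without 1 WT library, Nop56 (-0.093 to 0.053), Cxcr5 (-0.12 to 0.035), Mmp9 (-0.66 to 0.16) and Parp8 (-0.13 to 0.036), and Cd69 in KEP mice over the fits without 1 KEP library (-0.052 to 0.10). Of 172 named genes called in WT, 97 were called in the same direction in the 31-library fit and 75 were not called. Genes near 0 CPM in a tissue, such as Kit and Eomes, rest on few counts.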
